A study of Mus musculus with 8 samples.

Results

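The genes described here are those of the transforming growth factor beta (TGF-beta) system: the ligands Tgfb1, Tgfb2 and Tgfb3, the receptor chains Tgfbr1, Tgfbr2 and Tgfbr3, the signal carrier Smad3, the inhibitor Smad7 and the secreted matrix protein gene Tgfbi. They were chosen by name, with earlier results of these data known. The 9 genes were all found among the 31053 gene rows of the count tables, with no symbol repeated among them. Levels were followed across all barcode types of 8 droplet RNA libraries made from the lamina propria (the connective tissue beneath the lining) of the mouse colon. The mice were C57BL/6, aged 10 to 12 weeks and kept specific pathogen free. The mutants carry the S182A substitution in the nuclear receptor RORgt, the lineage factor of Th17 cells, and the library titles call the same line S203A knock-in. Treated mice drank 2% dextran sulfate sodium (DSS, a detergent-like polymer that injures the colon lining) for 7 days, had 3 further days on plain water, and all mice were taken on day 10. The 4 groups of 2 libraries were untreated wildtype, untreated mutant, wildtype after DSS and mutant after DSS. Each suspension went through a kit that enriches CD4+ T cells before about 10000 cells were loaded, so the other cell types seen here are those that remained after enrichment. The labels number the animals and give no batch, so p-values measure the spread between these libraries. Neighbouring animal numbers always share a treatment, so a difference that goes with the numbers cannot be told apart from DSS.

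In TGF-beta signalling a latent ligand is released from its carrier complex and binds a receptor of type II and type I chains. Tgfbr2 is the type II chain, Tgfbr1 is the type I kinase that phosphorylates Smad3, and Tgfbr3 (betaglycan) is a coreceptor that presents ligand. Smad7 is induced by the pathway and blocks the type I receptor, and Tgfbi was named for its induction by TGF-beta. In the gut the pathway is known for inducing regulatory T cells and Th17 cells, for keeping resident macrophages in place and for driving matrix production by fibroblasts.

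The libraries held 34497509 to 46960005 UMIs (unique molecular identifiers, which mark single captured RNA molecules). Of 100673 barcodes, 96721 passed the filters on genes and mitochondrial share. Between 21 and 64 barcode sequences were shared by any pair of libraries, 1176 in all. Barcodes were clustered without the 9 genes and without the pathway genes listed below, and clusters were named X-like from marker lists. The 5 populations tested were 19919 CD4 T cells (on the authors' cell list and in a T cell cluster), of which 2645 were Th17-like and 4075 Treg-like, and 11445 macrophage or monocyte-like and 10137 fibroblast-like barcodes. A cluster led by male accessory gland genes was left unnamed. Of its 1594 barcodes 1140 came from untreated mutant replicate 1, and 498 were on the authors' cell list. That library held 1408 CD4 T cells, and 1756 with the listed cells of this cluster. Wildtype DSS replicate 1 gave only 243 fibroblast-like barcodes, against 931 to 2106 in the other libraries. Levels are UMIs scaled to the population's own total in that library (CPM, counts per 1000000 UMIs). A lower level in a mixed population can come from fewer cells of one type or from less RNA per cell. The level summed over the population does not tell these apart. The sequenced ends lie at the 3′ end of transcripts, so a substitution in RORgt cannot be checked from these counts.

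On the mouse genome build GRCm38 (mm10), GENCODE vM21 places Tgfb1 at chr7:25687002-25705077 on the plus strand and Tgfb2 at chr1:186622792-186705989 on the minus strand. Tgfb3 lies at chr12:86056745-86079041, minus strand. Among the receptors, Tgfbr1 lies at chr4:47353222-47414931 on the plus strand, Tgfbr2 at chr9:116084293-116175360 and Tgfbr3 at chr5:107106570-107289629, both on the minus strand. Smad3 (chr9:63646767-63757994) is on the minus strand and Tgfbi (chr13:56609523-56639562) on the plus strand. RefSeq promoter entries were used for 6 of the 9 genes, namely Tgfb1, Tgfb2, Tgfbr1, Tgfbr2, Smad3 and Tgfbi, and the other genes are named only. The 250 bases before the RefSeq start site of Tgfb1, of the first Tgfbr1 entry and of Tgfbi are shown because these 3 genes passed the test in at least one population below. They are written 5′ to 3′ on the plus strand, the strand of these genes, of GRCm38.p6, and capitals mark the searched motifs.
Tgfb1, chr7:25686752-25687001: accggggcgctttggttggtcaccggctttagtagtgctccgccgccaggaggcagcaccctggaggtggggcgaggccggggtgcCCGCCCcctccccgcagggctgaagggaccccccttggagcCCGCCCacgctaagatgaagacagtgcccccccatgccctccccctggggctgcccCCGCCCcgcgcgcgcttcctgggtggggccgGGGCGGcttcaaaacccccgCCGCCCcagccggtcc
Tgfbr1, chr4:47352972-47353221: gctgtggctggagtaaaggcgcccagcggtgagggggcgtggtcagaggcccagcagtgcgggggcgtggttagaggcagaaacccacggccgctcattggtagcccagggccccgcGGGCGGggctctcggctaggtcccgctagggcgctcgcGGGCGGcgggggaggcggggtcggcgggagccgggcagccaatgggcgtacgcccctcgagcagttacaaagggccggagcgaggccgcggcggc
Tgfbi, chr13:56609336-56609585: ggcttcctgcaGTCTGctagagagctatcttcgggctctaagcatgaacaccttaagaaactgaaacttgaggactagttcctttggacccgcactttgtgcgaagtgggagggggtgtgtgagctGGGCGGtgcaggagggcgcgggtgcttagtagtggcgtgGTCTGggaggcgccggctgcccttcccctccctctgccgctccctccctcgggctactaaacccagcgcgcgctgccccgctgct
Both strands were searched. CAGAC is the core of the Smad3 binding element and reads GTCTG on the other strand. TGANTCA stands for the AP-1 site. GGGCGG is the GC box. The shown Tgfbi window held 2 CAGAC matches and 1 GC box, the Tgfbr1 window 2 GC boxes and the Tgfb1 window 5 GC boxes. No AP-1 match was found in any entry of the 6 genes. Of 32851 promoter windows of this length, 42.2% held CAGAC, 6.75% held TGANTCA and 32.7% held the GC box, so these matches are common letters and describe the sequence only. The GC share was 75.2% for Tgfb1, 74.8% for Tgfbr1 and 62.4% for Tgfbi, beside a median of 52.4% over all windows.

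The ligands were divided between cell types. Tgfb1, the main ligand of immune cells, was highest in Th17-like cells at 561 ± 56.3 CPM (mean ± SD, n = 8 libraries, as for all means below unless stated). It was next highest in monocyte-like barcodes at 417 ± 35.2 CPM and Treg-like cells at 396 ± 48.9 CPM, and lowest in plasma cell-like barcodes at 34.2 ± 7.01 CPM. Th17-like cells exceeded monocyte-like barcodes in 8 of 8 libraries, whereas monocyte-like, Treg-like, Th1-like and innate lymphoid-like levels did not separate from their neighbours in the order. Not all CD4 T classes were high. The cluster led by Lef1 and Sostdc1 ranked 13 and naive-like cells 15 of 18 classes, after fibroblast-like barcodes at 12. CD4 T and other T clusters held 50.9% of all Tgfb1 UMIs and macrophage-like barcodes 14.8%, beside 40.9% and 10.4% of all UMIs.

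Tgfb2 was a stromal and glial ligand here. Its level was 335 ± 116 CPM in glia-like, 139 ± 40.8 CPM in endothelial-like and 95.8 ± 9.37 CPM in fibroblast-like barcodes, and each step of this order held in 8 of 8 libraries. In T, B and myeloid classes its mean was at most 1.04 CPM. Fibroblast-like barcodes held 70.1% of its UMIs. Tgfb3 was the ligand with the fewest UMIs, at 66.3 ± 20.6 CPM in endothelial-like and 18.4 ± 4.81 CPM in fibroblast-like barcodes, a step that held in 8 of 8 libraries. None of the other 16 neighbouring pairs in the order of Tgfb3 separated.

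The receptor chains had different leading classes. Tgfbr1, the type I kinase, was highest in macrophage-like barcodes at 170.3 ± 22.2 CPM and was above smooth muscle or pericyte-like barcodes (87.9 ± 29.3 CPM) in 8 of 8 libraries. Monocyte-like (76.7 ± 15.8 CPM) and fibroblast-like barcodes (74.7 ± 25.0 CPM) followed, while the CD4 T classes lay between 20.2 CPM (naive-like) and 35.8 ± 9.13 CPM (Treg-like). Tgfbr2, the ligand-binding type II chain, was highest in endothelial-like barcodes at 703 ± 163 CPM, above a cluster led by Fabp4 and Plvap (352 ± 107 CPM) in 8 of 8 libraries. The endothelial-like barcodes are 1 cluster led by Ccl21a, Lyve1 and Mmrn1. The cluster led by Fabp4 and Plvap was left unnamed, with Flt1 and Ly6c1 also among its leading genes, so it may hold other endothelial cells. Among T cells Tgfbr2 was 150.0 ± 18.3 CPM in Th1-like and 141 ± 21.5 CPM in Th17-like cells but 72.0 ± 12.5 CPM in Treg-like cells, the lowest CD4 T class in the order. The coreceptor Tgfbr3 was highest in smooth muscle or pericyte-like barcodes at 465 ± 296 CPM, then fibroblast-like at 195 ± 116 CPM and endothelial-like barcodes at 146 ± 59.3 CPM. Its large SDs go with the DSS difference described below. Within T cells Tgfbr3 was ordered, in steps that held in 8 of 8 libraries, from a CD4 T cluster led by Lef1 and Sostdc1 (26.0 CPM) to Th1-like and to Th17-like cells (11.9 ± 3.02 CPM), and it was 4.98 ± 1.93 CPM in Treg-like cells.

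Smad3, the receptor-activated signal carrier, had few steps between classes that separated. It ranged from 55.7 ± 14.5 CPM in innate lymphoid-like to 13.2 ± 4.05 CPM in squamous epithelium-like barcodes (n = 4), and only the last step, to plasma cell-like barcodes at 1.24 ± 0.929 CPM, separated. Smad7, the feedback inhibitor, was highest in Th1-like cells at 530.2 ± 71.7 CPM, above Th17-like cells (447 ± 46.1 CPM) in 8 of 8 libraries, and T cell clusters held 62.1% of its UMIs beside 40.9% of all UMIs. Treg-like cells carried 406 ± 78.8 CPM. The cluster led by Fabp4 and Plvap followed at 363 ± 79.0 CPM, ahead of proliferating CD4 T cells (309.9 ± 109 CPM) and naive-like CD4 T cells (308 ± 92.2 CPM), though these neighbours did not separate. Fibroblast-like barcodes carried 239 ± 38.5 CPM and plasma cell-like barcodes 48.1 ± 9.42 CPM.

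Tgfbi was highest in monocyte-like and macrophage-like barcodes. It reached 1358 ± 445 CPM in monocyte-like and 803 ± 53.4 CPM in macrophage-like barcodes, with 261 ± 87.4 CPM in smooth muscle or pericyte-like barcodes, and both steps held in 8 of 8 libraries. The macrophage-like class held 49.6% of all Tgfbi UMIs and the monocyte-like class 21.7%, beside 10.4 and 2.59% of all UMIs. The fibroblast-like class held 14.7%, below its 18.5% of all UMIs, and the dendritic cell-like class 2.91%, below its 3.51%. In CD4 T cells the Tgfbi level was a median of 0.531% (range 0.196 to 2.03%) of the macrophage-like level. C1qa, a macrophage complement gene that T cells lack, stood at 0.627% and C1qb at 0.756% on the same measure (range 0.251 to 2.39% and 0.394 to 2.15%). The other macrophage markers stood between 0.675% (Adgre1) and 1.98% (Cd68), with Mrc1 at 1.18%. Against the monocyte-like level Tgfbi stood at a median of 0.358%. The monocyte markers Chil3 (0.0104%) and F10 (0.0575%) lay lower on that measure. Vcan (0.762%), Ly6c2 (1.93%), Plac8 (6.33%) and Ccr2 (132%) lay higher. The part of other cells' RNA in the Tgfbi of CD4 T cells was not tested.

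The genes whose pattern was most like each member were taken by Pearson's r of log2(CPM + 1) over 141 sums of class and library from 19 classes, as a description with no test, since the sums share libraries. They were Atp2b1 for Tgfb1 (r = 0.85), Rhobtb3 for Tgfb2 (0.96), Kcnn3 for Tgfb3 (0.74), Lgmn for Tgfbr1 (0.72), Zbtb4 for Tgfbr2 (0.83), Nfia for Tgfbr3 (0.84), Stat3 for Smad3 (0.78), Fryl for Smad7 (0.83) and Dab2 for Tgfbi (0.92). The next for Tgfbi were Thbs1 (0.90), which codes for an activator of latent TGF-beta and is counted below, and Rab7b (0.89).

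**Figure D1:**
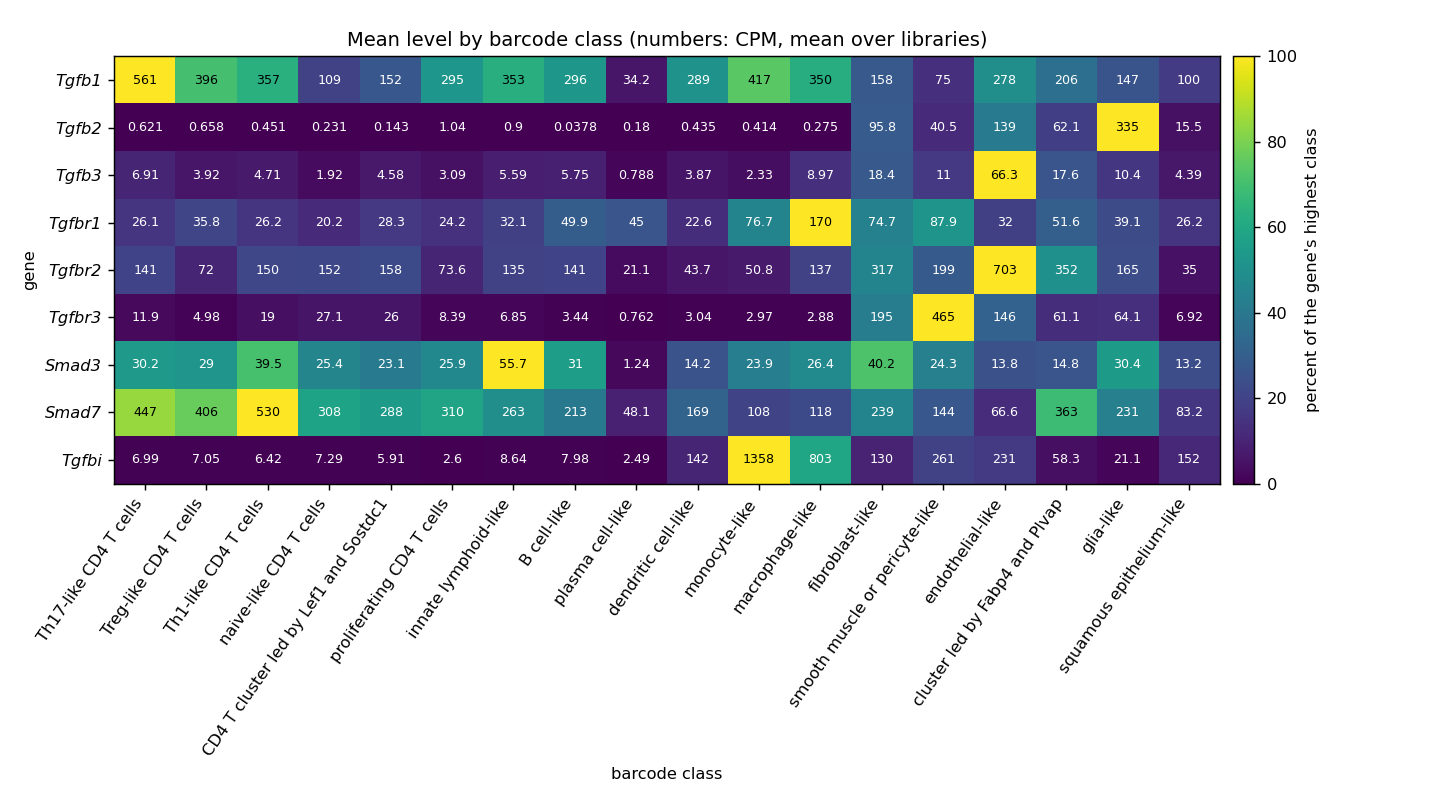
Mean CPM of the 9 genes (rows) in 18 barcode classes (columns), with colour giving the percentage of the gene's highest class. Tgfb1 is brightest in the Th17-like column and ranks 13 and 15 in the CD4 T cluster led by Lef1 and Sostdc1 and in naive-like CD4 T cells. Smad7 is brightest in the Th1-like and Th17-like columns. Tgfb2, Tgfb3, Tgfbr2 and Tgfbr3 are bright in stromal, endothelial or glial columns, and Tgfbi in the monocyte-like and macrophage-like columns (1358 and 803 CPM).

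DSS was compared with no treatment over both genotypes and within each, by edgeR's quasi-likelihood test on summed UMIs with Benjamini-Hochberg adjustment over all genes tested. A gene was called at an adjusted p under 0.05, and log2 changes are after TMM scaling, which differs from ratios of the CPM values. With library totals only and no TMM, an alternative chosen after seeing the data, the median change of all genes moved by 0.16 in macrophage or monocyte-like barcodes and by -0.07 to 0.07 in the other 4 populations. Of the genes called, the share that was higher after DSS went with it from 48.9 to 76.1% in macrophage or monocyte-like barcodes, 51.7 to 68.6% in CD4 T cells, 49.8 to 63.5% in Th17-like cells and 52.7 to 42.5% in fibroblast-like barcodes. The members called in CD4 T cells, Treg-like cells and fibroblast-like barcodes were also called without TMM, whereas those of macrophages differed and are given with both scalings. Averaged over genotypes, 4 of 9 members tested were called in fibroblast-like barcodes, 2 of 6 in Treg-like cells, 1 of 8 in CD4 T cells, 1 of 8 in macrophage or monocyte-like barcodes and none of 5 in Th17-like cells. Over all genes tested the share called in the same comparisons was 20.7% of 13579, 8.81% of 8181, 17.3% of 10993, 26.1% of 10936 and 3.65% of 6555 genes. With so few members, these counts were not tested against the shares of all genes, and the members are described one by one. DSS and untreated libraries did not overlap for 5 of 9, 2 of 6, 1 of 8, 2 of 8 and 0 of 5 members. Taken in that order of populations, the same held for 25.3%, 17.9%, 25.2%, 32.5% and 12.9% of all genes tested. A lack of overlap is therefore common and is given as a description. The genes too low to test were Tgfb2 in CD4 T cells and in macrophage or monocyte-like barcodes, Tgfb2, Tgfb3 and Tgfbr3 in Treg-like cells, and these 3 with Tgfbi in Th17-like cells. The median log2 change of the members tested was -0.13 in fibroblast-like barcodes, -0.22 in Treg-like cells, -0.15 in CD4 T cells, 0.03 in macrophage or monocyte-like barcodes and -0.13 in Th17-like cells, beside medians of all genes from -0.00 to 0.02.

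**Figure D2:**
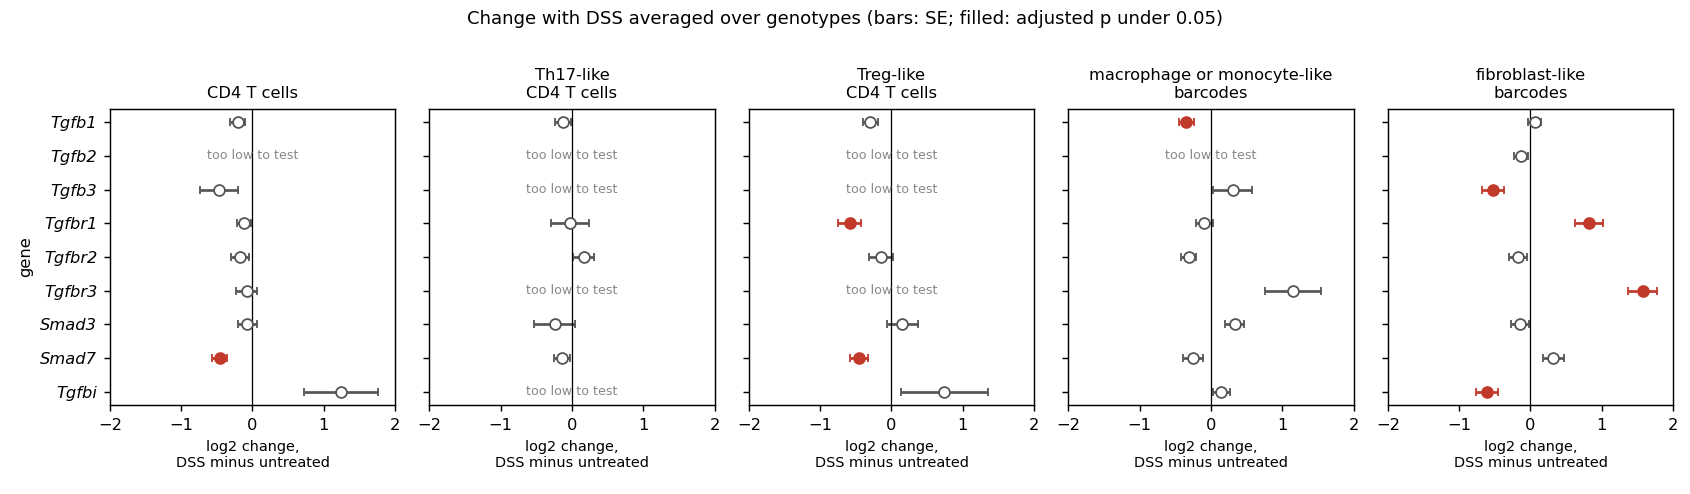
Log2 change with DSS averaged over genotypes (x axis, bars are SE) for each of the 9 genes (y axis) in the 5 populations, with filled points for an adjusted p under 0.05. The largest called change is that of Tgfbr3 in fibroblast-like barcodes (1.57), and the called changes in T cells and macrophages are all below 0, that of macrophages not being called without TMM.

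In fibroblast-like barcodes the receptor chains Tgfbr3 and Tgfbr1 rose and the ligand Tgfb3 and Tgfbi fell after DSS. Tgfbr3, the coreceptor, was 93.9 and 100.2 CPM in untreated wildtype, 104 and 111 CPM in untreated mutant, 225 and 285 CPM in wildtype DSS and 228 and 416 CPM in mutant DSS libraries. All 4 DSS libraries lay above all 4 untreated ones, with the highest value in mutant DSS replicate 2. The log2 change was 1.57 ± 0.21 (SE, adjusted p = 0.00195), a 2.97-fold rise. Within wildtype alone Tgfbr3 was the only member called by edgeR (1.47 ± 0.29, adjusted p = 0.032), where 3.19% of all genes were called. DESeq2 also called Tgfbi there (-0.79, adjusted p = 0.031). Within the mutant Tgfbr3 was likewise the only member called by edgeR (1.67 ± 0.29, adjusted p = 0.0144), where 8.37% were called. DESeq2 also called Tgfbr1 there. By edgeR 4 of 9 members in wildtype and 5 of 9 in the mutant had an unadjusted p under 0.05, beside 20.7% and 28.8% of all genes. The change of Tgfbr3 averaged over genotypes was called without each of the 8 libraries in turn. The call within wildtype was lost without either untreated wildtype library (adjusted p = 0.22 for both), either untreated mutant library (adjusted p = 0.0663 and 0.0628) or wildtype DSS replicate 2 (adjusted p = 0.224). That within the mutant was lost without either untreated mutant library (adjusted p = 0.135 and 0.0951).

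Tgfbr1, the type I kinase, was 67.9 and 55.7 CPM in untreated wildtype, 54.8 and 47.7 CPM in untreated mutant, 70.6 and 111 CPM in wildtype DSS and 76.4 and 113 CPM in mutant DSS fibroblast-like barcodes. The DSS libraries were all higher, although wildtype DSS replicate 1 lay close to untreated wildtype replicate 1. The log2 change was 0.82 ± 0.20 (adjusted p = 0.0234), so that 2 members rose where 10.9% of all genes rose. The call was lost without any one untreated library (adjusted p = 0.066 to 0.108), without wildtype DSS replicate 2 (adjusted p = 0.111) and without mutant DSS replicate 2 (adjusted p = 0.0532). Tgfbr2 was 358, 269, 378 and 366 CPM in untreated and 299.9, 268, 336 and 258 CPM in DSS libraries in the same order of groups and was not called.

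Among the ligands, Tgfb3 stood at 21.8 and 19.3 CPM in untreated wildtype, 27.5 and 18.9 CPM in untreated mutant, 16.2 and 11.7 CPM in wildtype DSS and 17.1 and 14.5 CPM in mutant DSS libraries. Every DSS library was below every untreated one, and the log2 change was -0.53 ± 0.16 (adjusted p = 0.0421), from 1209 UMIs in all. It was no longer called when untreated wildtype replicate 1 or 2 was left out (adjusted p = 0.117 and 0.0912), nor without untreated mutant replicate 1 (adjusted p = 0.159), wildtype DSS replicate 2 (adjusted p = 0.19) or mutant DSS replicate 2 (adjusted p = 0.0837), nor by DESeq2 (adjusted p = 0.0889). Tgfb2, which these barcodes carry most of, lay between 97.0 and 108 CPM untreated and between 79.2 and 96.2 CPM after DSS and was not called. Tgfb1 was not called either, with levels of 139 to 179 CPM untreated and 141 to 168 CPM after DSS.

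Tgfbi in fibroblast-like barcodes was 163 and 205 CPM in untreated wildtype, 143 and 129.5 CPM in untreated mutant, 117 and 90.5 CPM in wildtype DSS and 121 and 72.9 CPM in mutant DSS libraries. The groups did not overlap, and the log2 change was -0.61 ± 0.15 (adjusted p = 0.0251), so that with Tgfb3 2 members fell where 9.8% of all genes fell. Tgfbi was not called without untreated wildtype replicate 2 (adjusted p = 0.098), untreated mutant replicate 1 or 2 (adjusted p = 0.0892 and 0.0675) or wildtype DSS replicate 2 (adjusted p = 0.0961). The 7 macrophage markers, all detected at 5 CPM or more in these barcodes, summed to 333 to 735 CPM untreated and 122 to 441 CPM after DSS, and macrophages carry Tgfbi at a higher level. When barcodes with 2 or more UMIs of defining markers of another class were left out, the macrophage sum was 20.2 to 58.2 CPM untreated and 24.3 to 59.7 CPM after DSS. The log2 change of Tgfbi was then -0.58 with an adjusted p of 0.176. In the same barcodes that of Tgfb3 was -0.55 (adjusted p = 0.0648), that of Tgfbr3 1.47 (adjusted p = 0.00614) and that of Tgfbr1 0.93 (adjusted p = 0.027). Plasma cell markers in all fibroblast-like barcodes summed to 2368 to 4356 CPM untreated and 9807 to 20035 CPM after DSS, and without those barcodes to 518 to 1216 and 2505 to 3836 CPM. Their part in the results was not tested.

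Smad3 and Smad7 were not called in fibroblast-like barcodes. Smad3 lay between 40.0 and 46.6 CPM untreated and between 31.9 and 40.7 CPM after DSS. Smad7 was 256 and 232 CPM in untreated wildtype, 190.4 and 199.9 CPM in untreated mutant, 215 and 294 CPM in wildtype DSS and 235 and 289 CPM in mutant DSS libraries. Within the mutant its log2 change was 0.50 ± 0.22 (unadjusted p = 0.0447, adjusted p = 0.163).

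**Figure D3:**
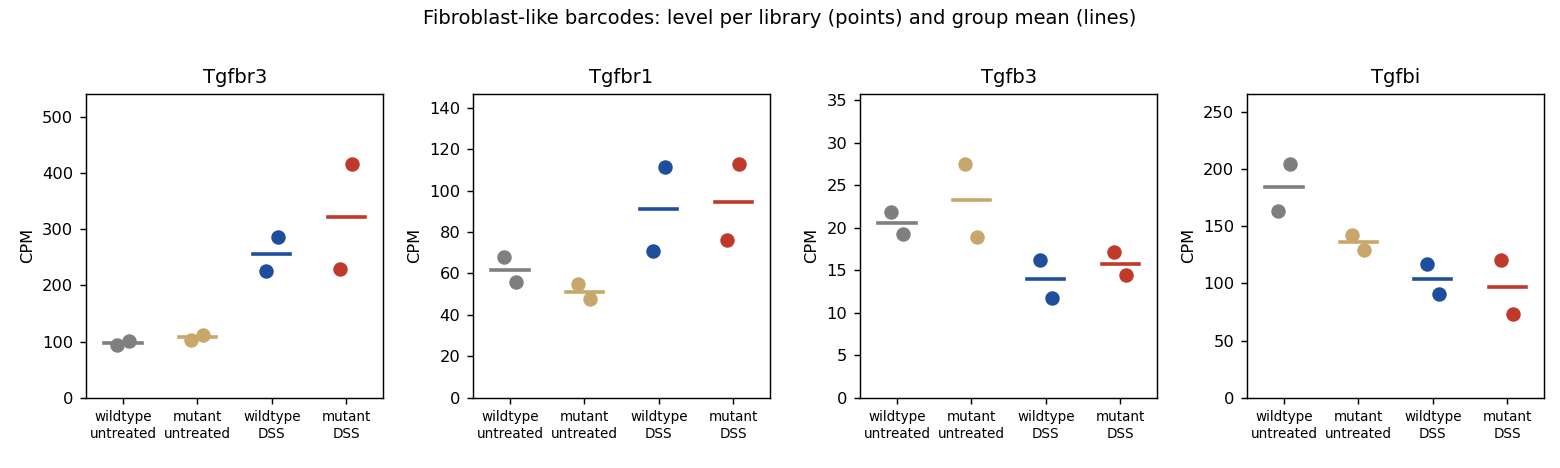
CPM of Tgfbr3, Tgfbr1, Tgfb3 and Tgfbi in fibroblast-like barcodes (y axis, from 0), with 1 point per library and a line at the mean of each of the 4 groups. Tgfbr3 and Tgfbr1 points lie higher after DSS (Tgfbr3 at 225 to 416 CPM against 93.9 to 111 CPM), and Tgfb3 and Tgfbi points lie lower.

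The make-up of the fibroblast-like barcodes differed with treatment. Cluster 6 held 48.4 to 55.2% of them in untreated and 3.77 to 22.3% in DSS libraries, and cluster 9 held 5.18 to 10.0% untreated and 27.6 to 63.0% after DSS. The members were therefore also tested within single clusters, an alternative chosen after seeing the data. Tgfbr3 in cluster 9 was 61.2, 55.6, 47.0 and 45.3 CPM untreated and 269, 321, 261 and 447 CPM after DSS, a log2 change of 2.64 ± 0.22 (adjusted p = 7.79e-06). In cluster 21 it was 142 to 156 CPM untreated and 227 to 405 CPM after DSS (1.05 ± 0.16, adjusted p = 0.000896). In cluster 19 it was 52.8 to 63.1 CPM untreated and 81.6 to 253 CPM after DSS, and the change of 1.20 ± 0.31 was not called (adjusted p = 0.0667). Cluster 6, with 28 barcodes in wildtype DSS replicate 1, was not tested, and its Tgfbr3 levels were 121 to 138 CPM untreated. After DSS they were 269 and 327 CPM in wildtype and 303 CPM in mutant replicate 2, and lowest, at 203.4 CPM, in mutant replicate 1. In each of the 4 clusters every DSS library was thus above every untreated one. The share of all genes without overlap was not counted within single clusters.

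Within clusters the other called members were less even. Tgfbr1 was called in cluster 21 (0.42, adjusted p = 0.0485) but not in cluster 9 (0.34, adjusted p = 0.346) or cluster 19 (0.69, adjusted p = 0.299). Tgfb3 was called in cluster 21, at 46.3 to 66.2 CPM untreated and 23.6 to 32.3 CPM after DSS (-1.03 ± 0.18, adjusted p = 0.00215), the cluster with its highest level. It was not called in cluster 9 (-0.57, adjusted p = 0.369) or cluster 19 (-0.17, adjusted p = 0.85). Tgfbi was called in cluster 9, at 405, 499, 387 and 339.6 CPM untreated and 123, 77.2, 138 and 81.6 CPM after DSS (-2.02 ± 0.19, adjusted p = 1.81e-05), and so was Tgfb1 (-0.80 ± 0.14, adjusted p = 0.00181). In clusters 19 and 21 the log2 change of Tgfbi was -0.48 and -0.63 (adjusted p = 0.298 and 0.0629), and that of Tgfb1 was 0.06 and 0.22 (adjusted p = 0.85 and 0.297). In cluster 9 the macrophage markers summed to 2839 to 4851 CPM untreated and 201 to 645 CPM after DSS. Macrophages carry Tgfbi and Tgfb1 above the fibroblast-like level and Tgfbr3 far below it (2.88 CPM), and the part of these markers in the cluster 9 values, that of Tgfbr3 included, was not tested.

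**Figure D4:**
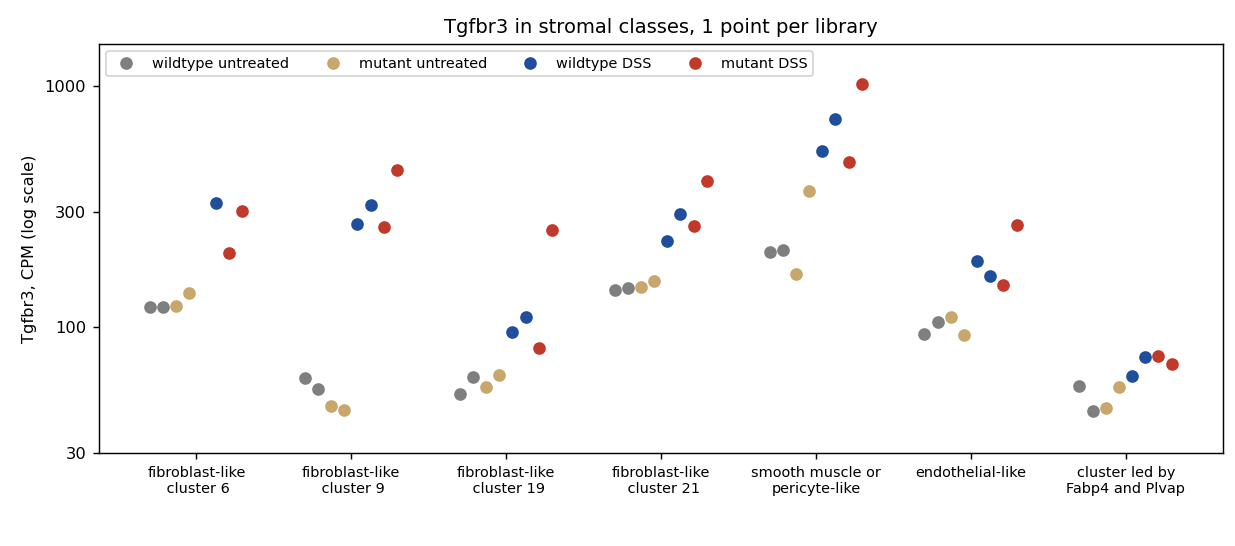
Tgfbr3 CPM (log scale) in the 4 fibroblast-like clusters, smooth muscle or pericyte-like and endothelial-like barcodes and the cluster led by Fabp4 and Plvap, with 1 point per library and group. Blue and red DSS points lie above the grey and tan untreated points in each column, and cluster 6 lacks wildtype DSS replicate 1, which had 28 barcodes there.

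Tgfbr3 levels in other stromal classes are given without a test, since these classes were picked after their values were seen. In smooth muscle or pericyte-like barcodes Tgfbr3 was 205, 209, 167 and 369 CPM in untreated and 538, 729, 483 and 1021 CPM in DSS libraries. In endothelial-like barcodes it was 94.1, 105, 110.3 and 92.4 CPM untreated and 188, 163, 149 and 265 CPM after DSS. The DSS libraries lay above the untreated ones in both classes. Tgfbr1 in smooth muscle or pericyte-like barcodes likewise stood at 53.1 to 67.2 CPM untreated and 105 to 127 CPM after DSS. The share of all genes without overlap between treatments was not counted in these classes. They are small, at 77 to 198 smooth muscle or pericyte-like and 44 to 209 endothelial-like barcodes per library.

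In CD4 T cells Smad7 fell after DSS. It was 524 and 478 CPM in untreated wildtype, 457 and 437 CPM in untreated mutant, 411 and 353 CPM in wildtype DSS and 389 and 289 CPM in mutant DSS libraries. The DSS libraries were all below the untreated ones, and the log2 change was -0.46 ± 0.11 (adjusted p = 0.0204), the only member that fell where 8.33% of all genes fell. Smad7 was not called once untreated wildtype replicate 1 or 2 was removed (adjusted p = 0.0642 and 0.0721), nor without untreated mutant replicate 1 or 2 (adjusted p = 0.0576 and 0.0614) or wildtype DSS replicate 2 (adjusted p = 0.079). Within wildtype the change was -0.45 ± 0.15 (unadjusted p = 0.0148, adjusted p = 0.175), and within the mutant -0.47 ± 0.15 (unadjusted p = 0.0115, adjusted p = 0.0944). No member was called in either by edgeR, where 0.282% and 4.14% of all genes were called, and DESeq2 called 0 and 1 member. In each, 1 of 8 members tested had an unadjusted p under 0.05 by edgeR, beside 18.2% and 26.0% of all genes. The Treg-like share of CD4 T cells was 10.9 to 14.2% untreated and 21.9 to 26.9% after DSS, and the Th1-like share, the class with the most Smad7, was 39.3 to 47.9% untreated and 27.6 to 38.7% after DSS.

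Within Treg-like cells, the regulatory class, Smad7 was 486 and 466 CPM in untreated wildtype, 425 and 486 CPM in untreated mutant, 419.9 and 303 CPM in wildtype DSS and 383 and 282 CPM in mutant DSS libraries. The groups did not overlap, with wildtype DSS replicate 1 just below the lowest untreated library, and Smad7 fell by 0.46 ± 0.13 on the log2 scale (adjusted p = 0.0395). Tgfbr1 also fell in Treg-like cells, where 4.58% of all genes fell. Its levels were 39.2 and 34.0 CPM in untreated wildtype, 46.5 and 50.6 CPM in untreated mutant, 26.8 and 25.4 CPM in wildtype DSS and 34.5 and 29.3 CPM in mutant DSS libraries, from 417 UMIs in all. Mutant DSS replicate 1 was level with untreated wildtype replicate 2, so the groups overlapped narrowly, and the log2 change was -0.58 ± 0.16 (adjusted p = 0.0368). Both calls were lost without any one untreated library, wildtype DSS replicate 2 or mutant DSS replicate 2, with adjusted p values of 0.0865 to 0.153 for Smad7 and 0.0906 to 0.135 for Tgfbr1. DESeq2 did not call Tgfbr1 (adjusted p = 0.178). Nor was Tgfbr1 called with no filter on low counts (adjusted p = 0.0641), with all barcodes that hold a Cd4 UMI (0.0623), without barcodes carrying markers of another class (0.0627) or at resolution 0.5 (0.0537), so that 5 of 16 alternatives kept the call.

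Tgfb1 in Treg-like cells was 468, 435, 415 and 413 CPM in untreated and 373, 342, 403 and 319.6 CPM in DSS libraries. Its log2 change of -0.30 ± 0.10 had an unadjusted p of 0.0118 and was not called (adjusted p = 0.0852). Without mutant DSS replicate 1 it was called (-0.38, adjusted p = 0.0284). Within each genotype no member was called in Treg-like cells by edgeR or DESeq2, where edgeR called 0.33% of all genes in wildtype and 1.44% in the mutant. Beside 14.4% and 18.8% of all genes, 3 and 2 of 6 members tested had an unadjusted p under 0.05. The named ones were Tgfb1 (-0.37), Tgfbr1 (-0.52) and Smad7 (-0.42) in wildtype, and Tgfbr1 (-0.65) and Smad7 (-0.49) in the mutant. Tgfbr2 and Smad3 of Treg-like cells overlapped between treatments, at 56.4 to 93.9 CPM and 21.6 to 38.3 CPM over the 8 libraries.

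In Th17-like cells no member was called in any comparison by edgeR or DESeq2, and none had an unadjusted p under 0.05. EdgeR called 0.0458% of all genes for DSS in wildtype and 1.92% for DSS in the mutant, and 9.29% and 16.4% had an unadjusted p under 0.05. Smad7 was 467, 536, 425 and 429.8 CPM in untreated and 445, 464, 442 and 373 CPM in DSS libraries, and Tgfb1 was 500.2, 559, 612 and 652 CPM untreated and 522, 531, 609 and 507 CPM after DSS. Both overlapped between treatments. These cells numbered 96 to 779 per library.

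The low Tgfbi of CD4 T cells was higher in some DSS libraries, with 3.20, 16.7, 9.72 and 4.50 CPM against 1.53 to 4.24 CPM untreated. Its log2 change of 1.24 ± 0.52 had an unadjusted p of 0.0364 and was not called (adjusted p = 0.12). Without the filter on low counts it was called (adjusted p = 1.45e-06), and without wildtype DSS replicate 1 it was called too (1.64, adjusted p = 0.0154). Without wildtype DSS replicate 2, the library with the highest level, its log2 change was 0.47 (adjusted p = 0.479). The 7 macrophage markers summed to 33.4 to 75.3 CPM untreated and 53.6, 209, 116 and 83.8 CPM after DSS in the same cells. They were highest in the same 2 libraries as Tgfbi, and their part in the Tgfbi value was not tested.

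**Figure D5:**
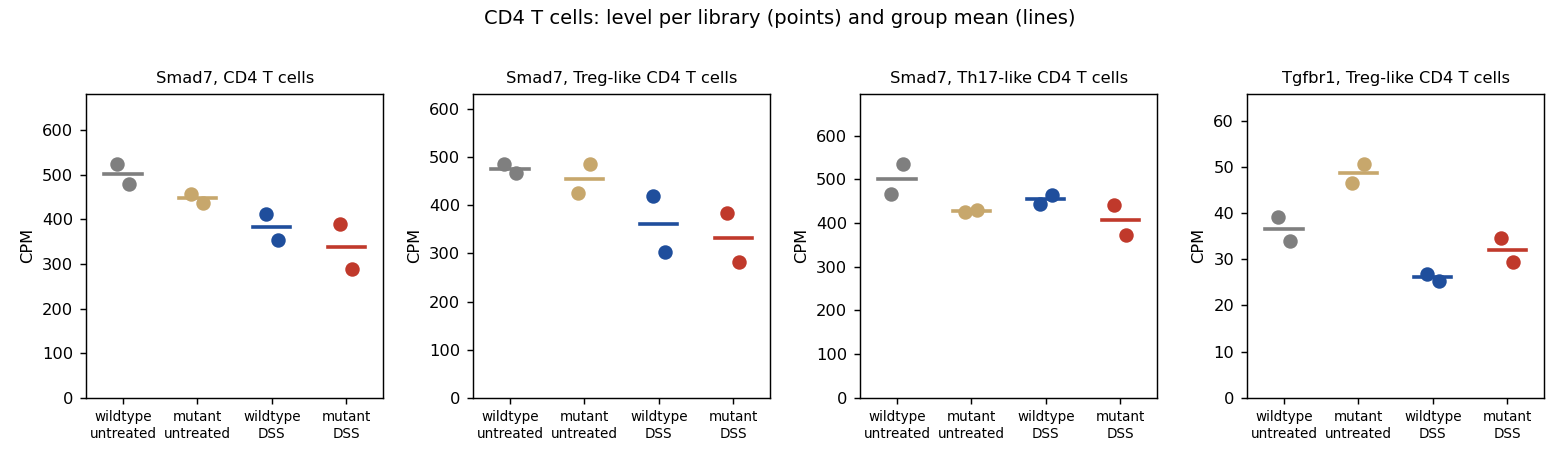
CPM (y axis, from 0) of Smad7 in CD4 T, Treg-like and Th17-like cells and of Tgfbr1 in Treg-like cells, with 1 point per library and a line at each group mean. Smad7 lies lower after DSS in CD4 T cells (289 to 411 against 437 to 524 CPM) and in Treg-like cells, overlaps in Th17-like cells, and Tgfbr1 of Treg-like cells overlaps narrowly.

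In macrophage or monocyte-like barcodes the one call was a lower Tgfb1 after DSS, and it depended on the scaling. Tgfb1 was 406 and 404 CPM in untreated wildtype, 359 and 379 CPM in untreated mutant, 324 and 335 CPM in wildtype DSS and 378 and 330.1 CPM in mutant DSS libraries. Mutant DSS replicate 1 lay within the untreated range, and the other DSS libraries were lower. The log2 change was -0.34 ± 0.11 (adjusted p = 0.0348), the only member called lower where 13.3% of all genes were. Without TMM it was -0.18 and not called (adjusted p = 0.184). The call was lost without any one library except mutant DSS replicate 1 (adjusted p = 0.0662 to 0.118). Macrophage markers summed to 8945 to 11698 CPM untreated and 5529 to 6715 CPM after DSS, and monocyte markers to 301 to 447 and 735 to 1085 CPM. In cluster 12 alone, the macrophages led by C1qb and Ms4a7, monocyte markers summed to 70.7 to 91.8 CPM untreated and 70.0 to 104 CPM after DSS. There Tgfb1 was 421, 415, 358 and 376 CPM untreated and 305, 325, 352 and 331 CPM after DSS, with no overlap (-0.43 ± 0.11, adjusted p = 0.0189). Smad7 was also called lower there, at 89.0 to 118 CPM untreated and 51.2 to 97.6 CPM after DSS (-0.62 ± 0.18, adjusted p = 0.033). Both cluster values are after TMM, and the share of all genes without overlap was not counted in this cluster.

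The other myeloid values did not pass the test after TMM. Without TMM, Smad3 (0.50, adjusted p = 0.0171), Tgfbr3 (1.32, adjusted p = 0.0267) and Tgfbi (0.31, adjusted p = 0.0441) were called higher, and the change of Tgfbr1 turned from -0.10 to 0.07, called under neither scaling. After TMM, Tgfbr2 had a log2 change of -0.31 ± 0.11 (adjusted p = 0.0512), and Smad3, at 18.5 to 27.4 CPM untreated and 27.8 to 34.3 CPM after DSS, 0.33 ± 0.13 (adjusted p = 0.0887). Tgfbr3 was at the low level of 1.02 to 3.40 CPM untreated and 2.02 to 5.09 CPM after DSS (1.15 ± 0.40, adjusted p = 0.0526). It was called without untreated mutant replicate 2 (adjusted p = 0.0314) or wildtype DSS replicate 1 (adjusted p = 0.0367), and Tgfbr2 without mutant DSS replicate 1 (adjusted p = 0.0422). The log2 change of Tgfbr2 was -0.15 without TMM (adjusted p = 0.311) and -0.13 in cluster 12 (adjusted p = 0.496). Tgfbr1, the receptor chain that macrophages carry most of, stood at 125 to 173 CPM untreated and 140.3 to 182 CPM after DSS. Within each genotype no member was called by edgeR or DESeq2, where edgeR called 1.12% of all genes in wildtype and 15.1% in the mutant. Beside 20.1% and 32.9% of all genes, 2 of 8 members tested in each had an unadjusted p under 0.05. They were Tgfb1 (-0.45) and Tgfbr3 (1.39) in wildtype, and Tgfbr2 (-0.44) and Smad3 (0.47) in the mutant.

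Mutant and wildtype libraries were compared in untreated and in DSS mice, and the interaction asked whether the DSS change differed between genotypes. No member was called in any of these 15 comparisons by edgeR or DESeq2. In untreated mice edgeR called 0% of all genes in CD4 T cells, macrophage or monocyte-like and fibroblast-like barcodes, where 552, 676 and 617 genes had an unadjusted p under 0.05 and DESeq2 called 17, 13 and 0 genes. It called 0.0763% in Th17-like and 0.0244% in Treg-like cells. After DSS it called 0% in all 5 populations, where 153 to 383 genes had an unadjusted p under 0.05 and DESeq2 called 0 genes. For the interaction it called 0.0305% in Th17-like cells and 0% in the other 4 populations, where 284 to 662 genes had an unadjusted p under 0.05 and DESeq2 called 0 to 2 genes.

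The member nearest to a genotype difference was Tgfb1 in untreated fibroblast-like barcodes, at 176 and 179 CPM in wildtype and 139.6 and 139 CPM in mutant libraries. After DSS it was 158 and 141 CPM in wildtype and 168 and 159.7 CPM in mutant libraries, so the order of the genotypes was the opposite. The log2 change of mutant against wildtype was -0.41 ± 0.13 untreated (unadjusted p = 0.00991, adjusted p = 0.998). The interaction was 0.50 ± 0.18 (unadjusted p = 0.0209, adjusted p = 0.937), so neither passed the adjustment. Tgfbi in the same untreated barcodes had a change of -0.49 ± 0.21 (unadjusted p = 0.0467, adjusted p = 1). In CD4 T cells, including the Th17-like cells in which RORgt acts, no member had an unadjusted p under 0.05 for genotype or interaction.

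Genes around the members were counted from 4 lists: latency and activation, other receptors of the superfamily, other Smads and regulators, and response genes. The lists were chosen with earlier results of these data known, so their counts beside all genes are a description only. For DSS averaged over genotypes in CD4 T cells, 5 of 8 latency and activation genes tested rose and none fell, where 17.3% of all genes were called in either direction. The list's median log2 change was 0.51 beside 0.02 for all genes. They were Itgb8 (1.22 ± 0.12, adjusted p = 0.00124), the integrin chain that activates latent TGF-beta, its partner Itgav (0.36), Lrrc32 (0.65), which holds latent TGF-beta on Treg cells, its myeloid counterpart Nrros (1.27), and Thbs1 (2.51). Thbs1 went from 1.24 to 7.66 CPM untreated to 8.63 to 47.2 CPM after DSS beside the macrophage markers given above, and its level in macrophage or monocyte-like barcodes was 398 CPM or more, so its part from other cells was not tested. The same holds for Nrros, a gene of myeloid cells. The Treg-like share of CD4 T cells, given above, was higher after DSS, and within Treg-like cells Lrrc32 and Itgav were not called. Of 12 other Smads and regulators tested, only Pmepa1, a TGF-beta-induced inhibitor of the pathway, changed, from 207 to 234 CPM untreated to 145 to 168 CPM after DSS (-0.52 ± 0.08, adjusted p = 0.00624). Of 6 other receptors tested 1 rose (Bmpr1a, 1.18).

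Response genes of CD4 T cells went both ways. Of 15 tested, 2 rose and 6 fell, beside 17.3% of all genes called and 8.33% lower, with a median of -0.62. Itgae, the integrin chain of gut-resident T cells, rose by 1.66 ± 0.11 (adjusted p = 0.000311), from 11.3 to 14.3 CPM untreated to 38.7 to 47.9 CPM after DSS, and Foxp3, the Treg factor, rose by 1.42 ± 0.12 beside the larger Treg-like share. Tagln, Id2, Cdkn1a and Id1 fell, by 2.18, 0.48, 0.63 and 1.60 on the log2 scale, and Id3 and Gpr15 were also lower. Tagln is the leading gene of the smooth muscle or pericyte-like cluster. The 5 markers of that class summed to 7.59 to 30.1 CPM untreated and 4.46 to 9.80 CPM after DSS in CD4 T cells, and their part in the Tagln value was not tested. Within Treg-like cells the list gave 2 of 9 higher and 2 lower, where 8.81% of all genes were called, with Itgae 1.20, Foxp3 0.46, Cdkn1a -0.80 and Id2 -0.67. There Pmepa1 also fell (-0.65 ± 0.13, adjusted p = 0.00792), as the only one of 12 other Smads and regulators tested, 3 of 6 latency and activation genes rose (Itgb8 0.55, Nrros 1.13, Thbs1 2.57) and Furin, which cleaves the ligand precursors, fell (-0.50). The macrophage markers of Treg-like cells summed to 40.2 to 69.8 CPM untreated and 43.2, 194, 111 and 93.7 CPM after DSS, and their part in the Thbs1 and Nrros values was not tested. Furin was not called without TMM (adjusted p = 0.0595). In Th17-like cells, where 3.65% of all genes were called, Thbs1 alone was called among the 4 lists, as 1 of 3 latency and activation genes tested. The macrophage markers of these cells summed to 42.1 to 98.0 CPM untreated and 70.3 to 241 CPM after DSS, and their part in the Thbs1 value was not tested.

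In fibroblast-like barcodes, where 20.7% of all genes were called, 3 of 12, 3 of 9, 4 of 15 and 6 of 15 genes of the lists were called. Of 12 latency and activation genes 2 rose and 1 fell, at a median of 0.06 beside 0.01 for all genes. Ltbp4, a carrier of latent ligand, fell by 0.98 ± 0.17 (adjusted p = 0.00598), and Thbs1 (0.82) and Itgav (0.42) rose. Of 9 other receptors, Acvr1b, an activin type I receptor, rose by 1.55 ± 0.18 (adjusted p = 0.00104), and Eng (-0.61) and Acvrl1 (-0.54), the coreceptor and type I receptor of endothelial signalling, fell. Of 15 other Smads and regulators Smad1 (0.60) and Tgif1 (0.71) rose and Smad9 (-0.93) and Ski (-0.41) fell. Of 15 response genes 2 rose and 4 fell. The matrix genes Fn1 (-0.72), Postn (-1.16) and Ctgf (-1.29) and Id2 (-0.45) fell. Among those that rose was Foxp3 (2.49 ± 0.30), at 12.0 to 30.2 CPM after DSS, a T cell gene, and the 6 T cell markers summed to 423 to 585 CPM untreated and 339.6 to 588 CPM after DSS in these barcodes. Since the clusters took different shares after DSS, the called genes were also tested within clusters 9, 19 and 21. Acvr1b was called higher in all 3 clusters (1.60, 1.74 and 2.19). In cluster 21, Ltbp4 (-1.65), Postn (-1.64), Eng (-1.01) and Ski (-0.72) were called lower and Tgif1 (0.83) higher. In cluster 19 the log2 change of Ltbp4 was -0.69 (adjusted p = 0.0526). In cluster 6, which was not tested, Ltbp4 was 1052 to 1280 CPM untreated and 431 to 718 CPM after DSS, and Postn was 1696 to 1958 CPM untreated and 233 to 1514 CPM after DSS. In cluster 9, Fn1 (-0.53) and Id2 (-0.92) were called lower and Smad1 (0.85) higher. Foxp3 was called higher in clusters 9 and 21 (3.04 and 2.89), and Ctgf, Thbs1, Itgav and Acvrl1 in none. Smad9 could be tested in cluster 19 alone and was not called there. Differences between clusters were not tested. Postn is among the leading genes of cluster 6, whose share was smaller after DSS. The share of cluster 19 was smaller as well, at 21.7 to 30.3% untreated and 8.81 to 16.0% after DSS.

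In macrophage or monocyte-like barcodes, where 26.1% of all genes were called, 3 of 9 latency and activation genes rose, with Thbs1 at 398 to 1003 CPM untreated and 1992 to 3650.3 CPM after DSS (1.69 ± 0.24, adjusted p = 0.0014), Itgb8 (2.36) and Nrros (0.47), and Emilin1 fell (-0.64). Thbs1 is among the leading genes of the monocyte-like cluster, and the higher monocyte and lower macrophage marker sums after DSS are given above. Their part in these values was not tested. Of 9 other receptors Acvrl1 (-1.41 ± 0.12, adjusted p = 0.000188) and Eng (-1.01) fell and Acvr1b (0.82) rose. Pmepa1 fell in this population as well (-0.74 ± 0.15, adjusted p = 0.00662), with Ski (-0.36), while Smad5 (0.66) rose, among 14 other Smads and regulators tested. Of 14 response genes 2 rose, Foxp3 (1.93) among them, and 3 fell, Tagln (-1.89), Id1 (-1.11) and Acta2 (-1.18). Tagln and Acta2 lead the smooth muscle or pericyte-like cluster, whose markers summed to 7.52 to 29.1 CPM untreated and 6.06 to 13.2 CPM after DSS in these barcodes, and their part was not tested. The T cell markers of these barcodes summed to 232 to 310.2 CPM untreated and 351 to 487 CPM after DSS, and their part in the Foxp3 value was not tested. Without TMM, Emilin1 (-0.48, adjusted p = 0.0609), Ski (-0.20, adjusted p = 0.138) and Acta2 (-1.02, adjusted p = 0.0527) were not called in this population. No gene of these lists was called for genotype or interaction in any population.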

How the data were processed

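The authors deposited UMI counts per gene and barcode, 1 matrix per library, made with Cell Ranger 3.1.0 on mm10 per the submitters' processing notes, which also name Seurat 4.0.1. Barcodes with 400 or more genes and under 20% mitochondrial counts were kept, no doublet caller was run, and clusters came from scanpy 1.11.5 and leidenalg 0.10.2 (30 components, resolution 1). Raw counts were summed per population and library, filtered with filterByExpr, scaled by TMM and tested in one edgeR 4.0.16 quasi-likelihood fit of all 8 libraries with 4 group means. P-values were adjusted over all genes tested. DESeq2 1.42.0 was an alternative. The code was checked on simulated counts. The members and lists were chosen with earlier results of these data known. All 9 members are named, with a fold change only where the adjusted or unadjusted p was under 0.05 in that contrast, and up to 6 called genes of each pathway list by smallest p. Promoter sequences are RefSeq's. The 2 libraries per group limit the precision. 1 gene of the response list is counted but not reported here by name.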

Additional observations from a re-analysis of the deposited data

How the results depend on the processing

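Counts of members called that moved by over 1.5 times are given first. With DESeq2 they were 1 for DSS in the mutant in CD4 T cells (0 by edgeR), 1 for DSS over both genotypes in Treg-like cells (from 2, the gene lost here and in the Treg-like counts of 1 over both genotypes below being Tgfbr1), and 2 for DSS in wildtype and 2 for DSS in the mutant in fibroblast-like barcodes (from 1 each). With no filter on low counts they were 2, 3 and 3 in CD4 T cells for DSS in wildtype, in the mutant and over both, 1 in Th17-like cells, 1 in Treg-like cells and 2 in macrophage or monocyte-like barcodes for DSS over both, and 3 and 2 in fibroblast-like barcodes for DSS in wildtype and in the mutant. EdgeR then called 4.27%, 8.04% and 13.8% of all genes in CD4 T cells for DSS in wildtype, in the mutant and over both (from 0.282%, 4.14% and 17.3%), 2.56% in Th17-like cells, 6.17% in Treg-like cells and 17.6% in macrophage or monocyte-like barcodes over both, and 8% and 13% in fibroblast-like barcodes in wildtype and in the mutant (from 3.19% and 8.37%). Clusters at resolution 0.5 gave 1 in Treg-like cells for DSS over both genotypes, and so did all barcodes with a Cd4 UMI, on the authors' list or not. Without barcodes carrying markers of another class the counts were 1 in Treg-like cells, 0 in macrophage or monocyte-like barcodes (from 1) and 2 in fibroblast-like barcodes (from 4) for DSS over both genotypes, and 0 in fibroblast-like barcodes for DSS in wildtype. A fit of only the 4 libraries compared gave 2 in fibroblast-like barcodes for DSS in wildtype and 0 in the mutant. Neighbouring animal numbers as a replicate block gave 1 and 1 in CD4 T cells for DSS in wildtype and in the mutant, 1 in Treg-like cells and 1 in macrophage or monocyte-like barcodes for DSS in the mutant, 3 in the latter over both genotypes, and 3 and 3 in fibroblast-like barcodes for DSS in wildtype and in the mutant. With the block the share of all genes called was higher as well, at 5% and 13% in CD4 T cells for DSS in wildtype and in the mutant, 5.3% in Treg-like cells and 24.2% in macrophage or monocyte-like barcodes in the mutant, 33.7% in the latter over both, and 9% and 21.4% in fibroblast-like barcodes in wildtype and in the mutant. The labels do not pair the animals, and the deviations of the neighbouring numbers correlated at -0.03 to 0.34. The highest values, 0.33 and 0.34, were those of DSS libraries in macrophage or monocyte-like and fibroblast-like barcodes. The blocks lie within treatments, so they take spread shared by neighbouring numbers out of the error of the DSS comparison. Calls gained with the block are therefore not read as firmer. The smaller moves over both genotypes were 2 to 3 in Treg-like cells with the block, which added Tgfb1 (adjusted p = 0.037), and in fibroblast-like barcodes 4 to 5 with the block, and 4 to 3 with DESeq2, at resolution 0.5 (both without Tgfb3, adjusted p = 0.0889 and 0.0581) and within cluster 9 or 21. Alternatives chosen after seeing the data were library totals without TMM, the accessory gland cluster, which moved no count over both genotypes, and single clusters. Without TMM the counts in macrophage or monocyte-like barcodes were 1 for DSS in the mutant (from 0) and 3 over both (from 1, and without Tgfb1), where 19.7% and 30.8% of all genes were called (from 15.1% and 26.1%). Fibroblast cluster 9 gave 3 and 2 members for DSS in wildtype and in the mutant, cluster 21 gave 2 and 2, cluster 19 gave 0 and 0, and also 0 over both genotypes, and macrophage cluster 12 gave 2 over both. Of all genes, 10.1% and 7.65% were called in cluster 9, 3.5% and 9.75% in cluster 21 and 0.511% and 0.0663% in cluster 19 for DSS in wildtype and in the mutant, and 3.21% in cluster 19 and 20.5% in macrophage cluster 12 over both. For the counts above, DESeq2 called 4.85% of all genes in CD4 T, 4.55% in Treg-like and 4.09% and 7.76% in fibroblast-like barcodes, the fit of 4 libraries 5.23% and 2.48%, and the fit without barcodes carrying other markers 8.55% in Treg-like, 20.6% in macrophage or monocyte-like and 13.7% in fibroblast-like barcodes over both, and 1.63% in the latter in wildtype. The log2 change of Tgfb1 for DSS in the mutant was 0.31 in all fibroblast-like barcodes and reversed to -0.70 in cluster 9 (adjusted p = 0.0529), and the cause was not tested. When each library was left out in turn, the members called ranged for DSS in the mutant from 0 to 1 in CD4 T cells, 0 to 1 in Treg-like cells and 0 to 3 in fibroblast-like barcodes. Over both genotypes they ranged from 0 to 4 in CD4 T cells, 0 to 3 in Treg-like cells, 0 to 3 in macrophage or monocyte-like barcodes and 1 to 5 in fibroblast-like barcodes, and for DSS in wildtype from 0 to 2 in fibroblast-like barcodes. They were 0 throughout in Th17-like cells and for genotype and interaction in all 5 populations. The share of all genes called is not given beside these ranges or beside the smaller moves over both genotypes. It is also not given for the Treg-like counts at resolution 0.5 and with all barcodes that hold a Cd4 UMI. These ranges, moves and counts are therefore not read against the background. Depth was low for some members, with 417 UMIs of Tgfbr1 in Treg-like cells and 1209 of Tgfb3 in fibroblast-like barcodes.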

Other observations

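Levels in single classes are given as values, without a test, since they were picked after they were seen. The share of all genes without overlap between treatments was not counted in these classes. The naive-like, proliferating and Th1-like cells are parts of the CD4 T cells tested, and the monocyte-like and macrophage-like barcodes are parts of the macrophage or monocyte-like population tested. Tgfbi in monocyte-like barcodes was 1059.8, 1077, 822 and 872 CPM in untreated and 1577, 1896, 1797 and 1764 CPM in DSS libraries, all DSS libraries being higher. In macrophage-like barcodes it overlapped, at 781 to 909 CPM untreated and 723 to 825 CPM after DSS. Tgfb2 in endothelial-like barcodes was 169, 199, 147 and 183 CPM untreated and 95.8, 112, 113 and 95.2 CPM after DSS, with every DSS library lower. In B cell-like barcodes Smad3 was 28.5, 21.4, 16.2 and 18.5 CPM untreated and 39.4, 51.6, 42.6 and 29.8 CPM after DSS. These Smad3 values rest on only 249 UMIs over all 8 libraries. In the same barcodes Smad7 was 226, 247, 256 and 234 CPM untreated and 186, 213, 212 and 133 CPM after DSS. Smad7 was also lower in every DSS library than in any untreated one in naive-like CD4 T cells, at 196 to 273 CPM against 291 to 461 CPM, and in proliferating CD4 T cells, at 154 to 268 CPM against 327 to 465 CPM. The untreated mutant libraries held only 40 and 54 naive-like cells. Tgfb1 of Th1-like CD4 T cells was 374 to 401 CPM untreated and 311 to 347 CPM after DSS.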
